A study of Mus musculus with 8 samples.

Results

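Expression of the genes that build and drive motile cilia was followed in the striatum of 12-month-old mice, 4 wild type and 4 Dclk3 knockout. The genes were the protein-coding genes of the annotation whose symbol begins with Dnah, Dnai, Dnaaf, Cfap, Tekt, Rsph or Drc, together with Foxj1, Ccdc153 and Tmem212. The rule gave 71 genes, of which 70 were among the 31417 genes of the deposited count table and 62 were among the 16511 genes expressed well enough to be tested. By family these 71 were 15 axonemal dynein heavy chains, 2 dynein intermediate chains (Dnaic1 and Dnaic2 in the annotation), 4 dynein assembly factors, 31 Cfap genes, 5 tektins, 8 radial spoke genes, 3 nexin-dynein regulatory complex genes and 3 ependymal markers. Cfap97d1 was the gene not in the table.

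Each library came from 1 striatum, taken here as 1 mouse because the labels number the libraries without naming animals, and poly(A) RNA was sequenced from the whole tissue. If 2 striata came from 1 mouse, the p-values would measure in part the spread within animals. Dclk3, doublecortin-like kinase 3, is a protein kinase that is abundant in the striatum. The labels give the genotypes as WT and KO and the age as 12 months. For the strain, the sex and the deleted segment of Dclk3, nothing is given in the sources used. The comparison asks how the adult striatum differs in gene expression when Dclk3 is knocked out.

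Motile cilia are beating projections of the cell surface built on a ring of doublet microtubules around a central pair. Outer and inner dynein arms on the doublets provide the force, radial spokes and the nexin-dynein regulatory complex regulate it, and tektins and several Cfap proteins stiffen the doublet wall. In the forebrain they are carried by ependymal cells, which line the ventricles next to the striatum and move cerebrospinal fluid. The transcription factor Foxj1 switches on many of these genes together with RFX factors, which bind a motif called the X-box in the promoters of cilia genes.

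The X-box letters are shown because they are a feature of these genes that the choice by symbol did not use. RefSeq promoter windows of 300 bases (250 before the transcription start and 50 after it, GRCm38.p6) were matched by symbol to 58 of the 71 genes, giving 65 windows. The motif GTNNCCNNNGNAAC, searched on both strands, occurred in 9 of the 65 windows (13.8%), against 2.17% of all 32851 windows and 2.24% of the 21263 windows of protein-coding genes. The shorter RFX half-site GTTGCC, which can lie inside an X-box, occurred in 25 windows (38.5%), against 12.5% of all windows. The forkhead core TGTTTA, the kind of sequence that Foxj1 binds, occurred in 13 windows (20%), against 13.4% of all windows. These are matches of letters and were not tested as binding sites. In 7 genes an X-box match began within 30 bases of the start. Their sites are printed 5′ to 3′ on the strand of the gene, with the X-box match in capitals. The motif as written above lies on the printed strand in Cfap61 and on the opposite strand in the other genes.
Dnaaf2 (chr12:69198425-69198454, minus strand): tcccaggcGTTACTATGGCAACaaagcacg
Dnaaf5 (chr5:139150209-139150238, plus strand): tagcgccgGTTCCCTTGGAGACaggcaacg
Cfap44 (chr16:44394764-44394793, plus strand): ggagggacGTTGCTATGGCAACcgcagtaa
Cfap45 (chr1:172521103-172521132, plus strand): gttcttggGTTGCTATGGTAACgcgtcagc
Cfap61 (chr2:145934768-145934797, plus strand): gccgcgtcGTTTCCTTAGCAACtgtgtgcg
Cfap206 (chr4:34730208-34730237, minus strand): cgcgttccGTTTCCACGGTTACgcgactgc
Tekt4 (chr17:25471582-25471611, plus strand): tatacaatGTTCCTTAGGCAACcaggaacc

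Tekt1, whose values are described below, had no X-box match but 2 half-sites close together upstream of 1 of its starts, at offsets of -35 and -15 bases. That window is printed with the half-sites in capitals, where the half-site at -35 lies on the opposite strand.
Tekt1 (chr11:72361833-72362132, minus strand): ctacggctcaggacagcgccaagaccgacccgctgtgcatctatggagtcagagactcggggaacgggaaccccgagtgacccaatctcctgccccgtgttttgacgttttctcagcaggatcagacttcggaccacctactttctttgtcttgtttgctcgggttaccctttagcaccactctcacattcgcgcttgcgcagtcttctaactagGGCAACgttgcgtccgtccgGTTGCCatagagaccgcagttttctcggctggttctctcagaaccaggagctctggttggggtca

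Total counts ran from 24441242 to 37145559 per library. Dclk3 measured 80.9 to 117 CPM (counts scaled to the library size, which was adjusted by the trimmed mean of M-values, TMM) in wild type and 19.6 to 27.7 CPM in the knockout, with a log2 fold change of -2.06 (SE 0.137). In edgeR's quasi-likelihood test its Benjamini-Hochberg adjusted p was 0.000773, and it was the 1 gene called among 16511 (0.00606%). The tissue label was met in every library: Ppp1r1b, a phosphoprotein of spiny neurons, measured 898 to 1140 CPM and the dopamine receptor gene Drd1 170 to 207 CPM. Wild-type replicate 4 stood apart through genes of the choroid plexus, the ciliated epithelium of the ventricles that secretes cerebrospinal fluid. Ttr, its transthyretin gene, measured 2717 CPM there, 207.5 CPM in knockout replicate 1 and as little as 23.7 CPM in the rest. All 14 choroid plexus genes tested were highest in wild-type replicate 4, at 4.04 to 37.5 times the mean of the other 7 libraries, and the sum of the list was 3068 CPM there against 45.4 to 257.6 CPM elsewhere. For motile cilia genes and genes of the other lists named below, the fold change is given with and without this library where it reached at least 1.5 times the mean of the others. Dclk3 measured 86.15 CPM in this library, below the wild-type mean of 94.73 CPM. It stood at 1.57 times the mean of the other 7 libraries, a mean that includes the 4 knockout libraries. The log2 fold change of Dclk3 ran from -2.21 to -1.95 over the alternatives described at the end.

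Most motile cilia genes were expressed at a low level in whole striatum. In wild type 10 genes reached 10 CPM, 42 lay between 1 and 10 CPM, and 18 lay under 1 CPM. The median over the 62 tested genes was 2.54 CPM, against 18.3 CPM over all genes tested. Ependymal cells are a small part of the tissue, and in bulk samples fewer cells of a type and less RNA per cell cannot be told apart.

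Per kilobase of exon, the dynein heavy chains were at the low end of the wild-type levels and the other families were mixed. After Dnah1 at rank 25 of the 70 genes, the other 14 heavy chains held ranks from 42 to 70. Cfap36, which binds the small GTPase Arl3, was highest at 26.1 CPM per kb. It was followed by Cfap298, needed for outer arm assembly, at 12.8 CPM per kb, and by Drc1, a scaffold of the nexin-dynein complex, at 7.83 CPM per kb. Cfap97 at 7.49 CPM per kb, Cfap20, which seals the inner junction of the doublet, at 6.94 and the radial spoke head gene Rsph9 at 6.64 came next. The markers lay lower, with Foxj1 at 3.58, Tmem212 at 2.79 and Ccdc153 at 2.09 CPM per kb. The 15 heavy chains, which are very long transcripts, ranged from 0.0209 for Dnah8 to 1.04 for Dnah1, with a median of 0.0798 CPM per kb. The label of the list names ependymal cells, but bulk values do not say which cells the RNA came from. Among the genes highest per kb, Cfap36, Drc1, Cfap97 and Cfap20 varied little between mice, as described below. Cfap298 and Rsph9 had an SD (standard deviation) within a genotype of 0.116 and 0.18 on the log2 scale. The median over all genes tested was 0.139.

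**Figure D1:**
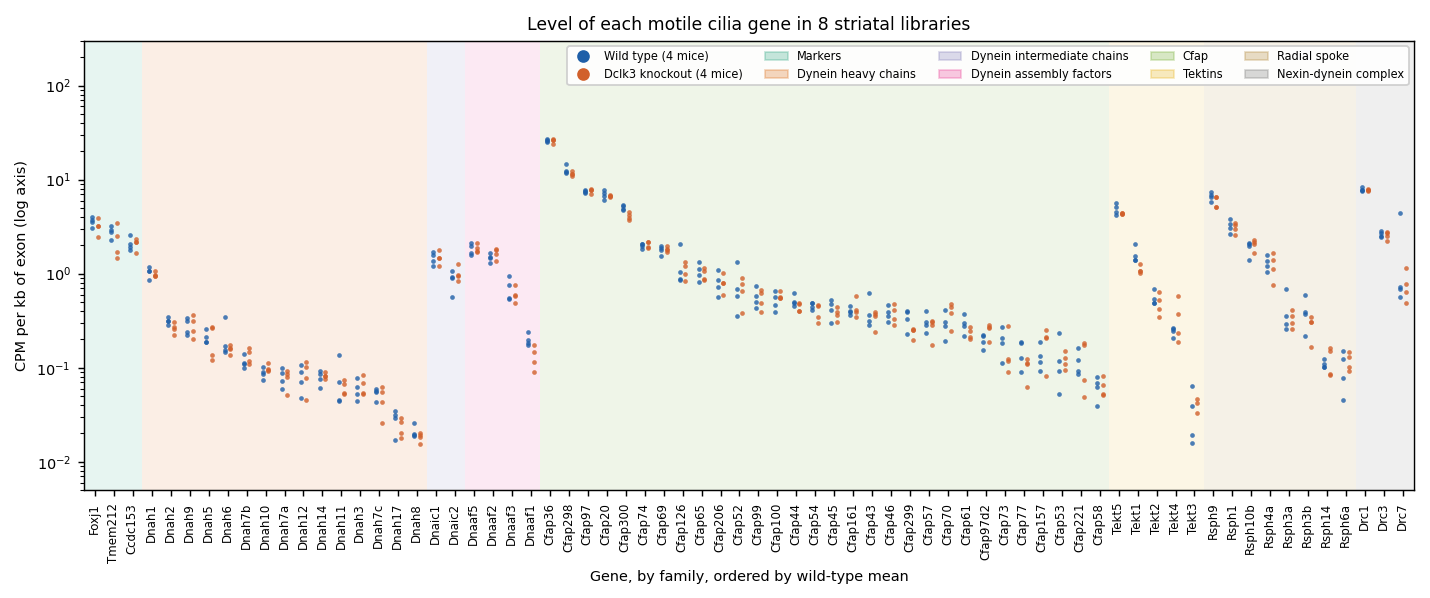
Level of the 70 genes in each library, in CPM per kb of exon on a log axis, with wild type in blue, knockout in orange and families shaded. Cfap36 sits highest at 26.1 CPM per kb in wild type and most dynein heavy chains sit near 0.0798; values of 0 are not drawn.

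Between the genotypes, none of the motile cilia genes passed the threshold. Of 62 tested, 0 were called higher and 0 lower by edgeR's quasi-likelihood test at a Benjamini-Hochberg adjusted p of 0.05, and the smallest adjusted p was 0.999; DESeq2 and limma-voom also called 0, with 2 and 4 genes at an unadjusted p under 0.05. At an unadjusted p under 0.05 there were 0 higher and 2 lower, Cfap300 and Tekt1, where the shares of all genes tested were 1.96% higher and 1.79% lower. More of the fold changes lay below 0 than above it, 42 of 62 (67.7%) against 50.5% of all genes, with a median log2 fold change of -0.08 against -0.001. The excess was smaller without either of a pair of libraries. Without wild-type replicate 4 it was 33 of 64 (51.6%, against 48.6% of all genes), with a median of -0.01. Without knockout replicate 3 it was 35 of 62 (56.5%, against 51.3% of all genes), with a median of -0.05. Leaving out any other single library gave 60.3% (wild-type replicate 3) to 70.3% (knockout replicate 2), against 49.6% to 51.2% of all genes. The medians then ran from -0.142 to -0.049.

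The intervals set how large a change these data leave room for. For 33 of the 62 genes (53.2%) the 95% interval stayed inside 1.5-fold up or down, against 77.8% of all genes tested. For 55 genes (88.7%) it lay within 2-fold. The median SD within a genotype was 0.25 on the log2 scale, against 0.14 over all genes, and the SD that counting alone would give was 0.16, against 0.06. For 3 genes the 4 knockout libraries all lay below the 4 wild-type libraries (4.84%, against 0.86% of all genes), namely Cfap300, Tekt1 and Dnaaf1. For 0 genes did they all lie above (1.07% of all genes).

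**Figure D2:**
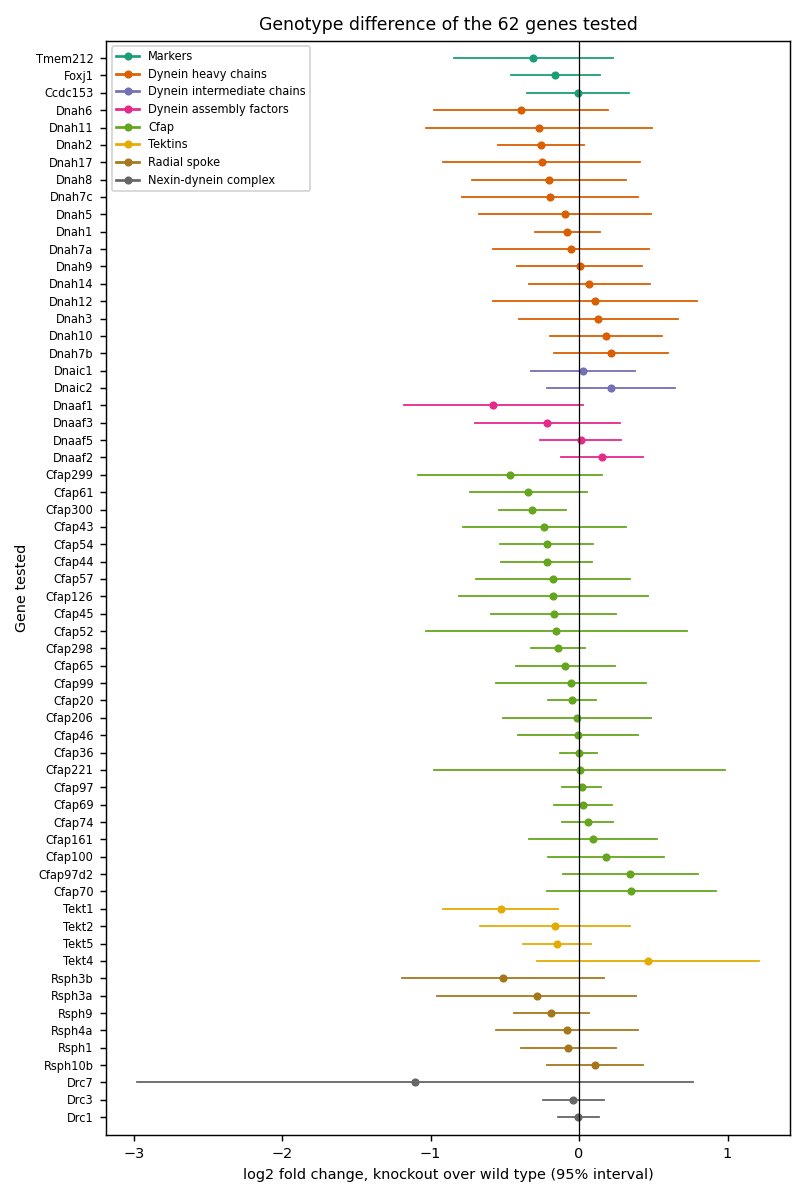
Log2 fold change of knockout over wild type for the 62 genes tested, by family, with its 95% interval from edgeR's quasi-likelihood fit. The intervals of Tekt1 and Cfap300 lie below 0, and that of Drc7 is the widest.

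Foxj1 (chr11:116330704-116335399, minus strand, GRCm38), the master regulator of motile ciliogenesis, measured 9.28, 10.6, 7.95 and 9.70 CPM in wild type (replicates 1 to 4, as for all values below) and 8.53, 8.47, 6.44 and 10.3 CPM in the knockout. The groups overlapped, with the lowest value in knockout replicate 3. Wild type averaged 9.38 CPM ± 1.1 (SD, n = 4) and the knockout 8.42 CPM ± 1.56 (SD, n = 4), with a log2 fold change of -0.16 (SE 0.138, 95% interval -0.46 to 0.14). Ccdc153, a coiled-coil protein of the axoneme used as an ependymal marker (chr9:44240676-44247306, plus strand), measured 4.22, 3.87, 5.29 and 3.62 CPM in wild type and 4.43, 4.70, 3.36 and 4.42 CPM in the knockout. Its means were nearly equal, with a log2 fold change of -0.01 (SE 0.158). Tmem212, a membrane protein also used as an ependymal marker (chr3:27866066-27896368, minus strand), measured 2.28, 2.10, 1.64 and 1.97 CPM in wild type and 2.46, 1.79, 1.21 and 1.06 CPM in the knockout. The knockout held both the highest and the lowest library, and the log2 fold change was -0.31 (SE 0.247). The mean of the 3 markers was lowest in knockout replicate 3, at -0.42 on the log2 scale from the mean of the libraries.

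The dynein heavy chains, the motors of the arms, went both ways, 9 below 0 and 6 above. Dnah1, an inner arm chain and the heavy chain with the highest level, measured 14.01, 15.38, 13.95 and 11.07 CPM in wild type and 12.34, 12.75, 12.36 and 14.05 CPM in the knockout. Its groups overlapped, and the log2 fold change was -0.08 (SE 0.102). Dnah2, another inner arm chain, measured 4.69, 4.74, 4.26 and 5.24 CPM in wild type and 3.36, 4.06, 3.85 and 4.56 CPM in the knockout. Knockout replicate 4 alone lay above the lowest wild-type library, and the log2 fold change was -0.26 (SE 0.133), with an unadjusted p of 0.0753 (edgeR quasi-likelihood test). Dnah9, an outer arm chain, ran from 3.55 to 5.36 CPM in wild type and from 3.22 to 5.73 CPM in the knockout, giving a log2 fold change of 0.00 (SE 0.195).

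Dnah5, the other outer arm chain with a level above 3 CPM, was chosen after its values were seen because its knockout libraries fell into a low and a high pair. It measured 2.92, 4.07, 2.93 and 3.32 CPM in wild type and 1.89, 4.27, 2.13 and 4.16 CPM in the knockout, where replicates 1 and 3 were low and replicates 2 and 4 high. The near-identical copies Dnah7a, Dnah7b and Dnah7c can share reads, so their split is uncertain. Their summed level was 4.0 ± 0.504 CPM (SD, n = 4) in wild type against 4.25 ± 0.788 CPM (SD, n = 4) in the knockout, and the groups overlapped. The intermediate chains of the outer arm, Dnaic1 and Dnaic2, had log2 fold changes of 0.03 (SE 0.16) and 0.21 (SE 0.197).

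Of the dynein assembly factors, which fold and preassemble the arms in the cytoplasm, 2 lay below 0 and 2 above. Dnaaf1 measured 0.680, 0.561, 0.511 and 0.493 CPM in wild type and 0.410, 0.323, 0.489 and 0.256 CPM in the knockout. The groups did not overlap, but the closest libraries differed by 0.493 against 0.489 CPM, and these values rest on 7 to 20 counts per library. Its log2 fold change was -0.58 (SE 0.278), with an unadjusted p of 0.0588 (edgeR quasi-likelihood test). Dnaaf2, Dnaaf3 and Dnaaf5 had log2 fold changes of 0.15 (SE 0.127), -0.21 (SE 0.225) and 0.01 (SE 0.126), with overlapping groups. Dnaaf3 was at -0.03 without wild-type replicate 4.

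Among the 25 Cfap genes tested, 17 lay below 0 and 8 above, and Cfap300 had the smallest p of all 62 genes. Cfap300 (chr9:8021672-8042823, minus strand), a factor in the assembly of the dynein arms, measured 7.48, 8.42, 8.59 and 7.78 CPM in wild type and 5.86, 7.18, 6.15 and 6.75 CPM in the knockout. Every knockout library lay below every wild-type library. Wild type averaged 8.07 CPM ± 0.525 (SD, n = 4) and the knockout 6.49 CPM ± 0.593 (SD, n = 4), with a log2 fold change of -0.32 (SE 0.104, 95% interval -0.54 to -0.09). Its unadjusted p of 0.0100 became 0.999 after Benjamini-Hochberg adjustment over all genes in edgeR's quasi-likelihood test, which missed the threshold. Without wild-type replicate 4 its log2 fold change was -0.33, with an adjusted p of 0.584.

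Cfap61, part of the complex at the base of the radial spokes, measured 2.31, 2.98, 3.17 and 3.97 CPM in wild type and 2.13, 2.62, 2.24 and 2.85 CPM in the knockout. The groups overlapped, with a log2 fold change of -0.34 (SE 0.181), or -0.20 without wild-type replicate 4. Cfap298 measured 18.8, 23.6, 19.5 and 19.2 CPM in wild type and 19.4, 18.3, 17.4 and 18.4 CPM in the knockout, with wild-type replicate 2 above all others. Cfap36 and Cfap97 had close group means, 71.6 CPM ± 2.13 and 71.5 CPM ± 4.04 (SD, n = 4) for Cfap36 and 38.6 CPM ± 1.15 and 39.1 CPM ± 2.30 for Cfap97. Their 95% intervals, -0.13 to 0.12 and -0.11 to 0.15 on the log2 scale, were among the narrowest of the genes tested.

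Of the tektins, filament proteins inside the doublet wall, 3 of the 4 tested lay below 0. Tekt1 (chr11:72344722-72362442, minus strand) measured 2.48, 2.25, 2.25 and 3.37 CPM in wild type and 1.72, 1.72, 1.67 and 2.08 CPM in the knockout. Every knockout library lay below every wild-type library, and wild-type replicate 4 was the highest. Wild type averaged 2.59 CPM ± 0.534 (SD, n = 4) and the knockout 1.80 CPM ± 0.190 (SD, n = 4), with a log2 fold change of -0.53 (SE 0.178, 95% interval -0.92 to -0.14). It did not pass the threshold, with an unadjusted p of 0.0116 and 0.999 after adjustment in edgeR's quasi-likelihood test. Without wild-type replicate 4 the log2 fold change was -0.37, with an adjusted p of 0.730.

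Tekt5 ran from 7.59 to 10.2 CPM in wild type and from 7.73 to 8.08 CPM in the knockout, giving a log2 fold change of -0.15 (SE 0.106). Tekt2 had a log2 fold change of -0.16 (SE 0.231). Tekt4, named after its values were seen, went the other way, with 0.510, 0.533, 0.409 and 0.493 CPM in wild type and 0.738, 0.467, 0.374 and 1.17 CPM in the knockout. Its knockout libraries lay on both sides of wild type, and its log2 fold change of 0.47 (SE 0.345) was the highest of the 62. Tekt3 was nearly absent, with 0 to 4 counts per library. It was 1 of the 8 genes in the table that were too low to test, with Cfap53, Cfap58, Cfap73, Cfap77, Cfap157, Rsph6a and Rsph14. These 8 genes measured at most 0.603 CPM in any library, where 3 counts correspond to 0.0822 to 0.123 CPM.

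Of the radial spoke genes, 5 of the 6 tested lay below 0. Rsph9, a spoke head gene, measured 9.179, 11.03, 11.97 and 10.36 CPM in wild type and 8.241, 10.45, 8.221 and 10.48 CPM in the knockout, overlapping groups with a log2 fold change of -0.19 (SE 0.116). Rsph1, another spoke head gene, had a log2 fold change of -0.07 (SE 0.148), and Rsph10b one of 0.11 (SE 0.149). The stalk genes Rsph3a and Rsph3b are near-identical copies, and their sum was 2.11, 3.93, 1.94 and 1.75 CPM in wild type and 1.72, 2.15, 1.41 and 2.19 CPM in the knockout. Wild-type replicate 2 was the high library for both copies. Rsph3b alone had a log2 fold change of -0.51 (SE 0.313).

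The 3 nexin-dynein regulatory complex genes chosen by symbol held the steadiest and the most variable gene of all those tested here. Other genes of this complex are in a list described below. Drc1 measured 20.8, 22.5, 20.6 and 20.2 CPM in wild type and 20.8, 20.5, 21.6 and 20.9 CPM in the knockout, with an SD within a genotype of 0.05 on the log2 scale. Drc3, measured at 10.0 to 12.9 CPM over the 8 libraries, had a log2 fold change of -0.04 (SE 0.094). Drc7 (chr8:95055103-95078141, plus strand) measured 2.07, 2.13, 1.71 and 13.3 CPM in wild type and 3.44, 1.90, 1.47 and 2.30 CPM in the knockout. Its high value came from wild-type replicate 4 alone, with knockout replicate 1 next, the same order as for Ttr. The log2 fold change of -1.10 (SE 0.787, 95% interval -2.98 to 0.77) became 0.19 without wild-type replicate 4.

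**Figure D3:**
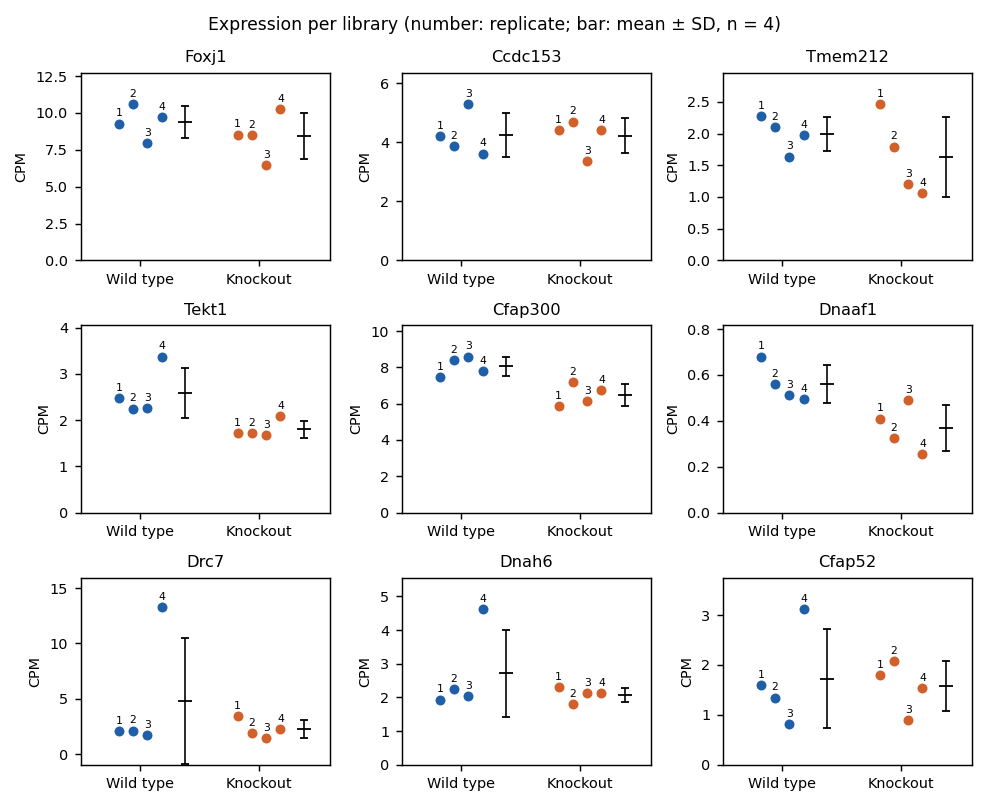
CPM of 9 genes in each library, numbered by replicate, with the mean ± SD of 4 libraries beside each group. Knockout lies wholly below wild type for Tekt1, Cfap300 and Dnaaf1, and wild-type replicate 4 lies far above the rest for Drc7 (13.3 CPM) and Dnah6 (4.63 CPM).

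Drc7 was not alone in this. Of the 62 genes, 17 (27.4%) were highest in wild-type replicate 4, against 15.7% of all genes tested. In 9 genes (14.5%, against 2.4%) this library was at least 1.5 times the mean of the other 7. They were Drc7 at 6.19 times, Dnah11 at 2.35, Dnah6 at 2.23, Cfap52 at 2.17, Cfap126 at 2.05, Cfap43 at 1.87, Tekt1 at 1.67, Dnaaf3 at 1.54 and Cfap61 at 1.52 times. Cfap126 and Cfap43 were chosen after their values were seen. The 3 ependymal markers were not among them, and neither were the outer arm chains Dnah5 and Dnah9. The other 7 libraries include the 4 knockout libraries, so a gene lower in the knockout, such as Tekt1 or Cfap61, reaches the ratio more easily.

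Dnah6, an inner arm chain, measured 1.94, 2.25, 2.05 and 4.63 CPM in wild type and 2.30, 1.79, 2.13 and 2.12 CPM in the knockout, so that 7 libraries lay close together. Its log2 fold change of -0.39 (SE 0.268) was 0.001 without wild-type replicate 4. Cfap52, a protein of the doublet lumen, measured 1.598, 1.347, 0.818 and 3.12 CPM in wild type and 1.80, 2.08, 0.891 and 1.53 CPM in the knockout, and its log2 fold change went from -0.15 to 0.31 without that library. Dnah11, an outer arm chain, went from -0.27 to 0.22, Cfap126 from -0.17 to 0.23 and Cfap43 from -0.23 to 0.08. Choroid plexus genes and these motile cilia genes were high in the same library; the part of choroid plexus RNA in their values was not tested.

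**Figure D4:**
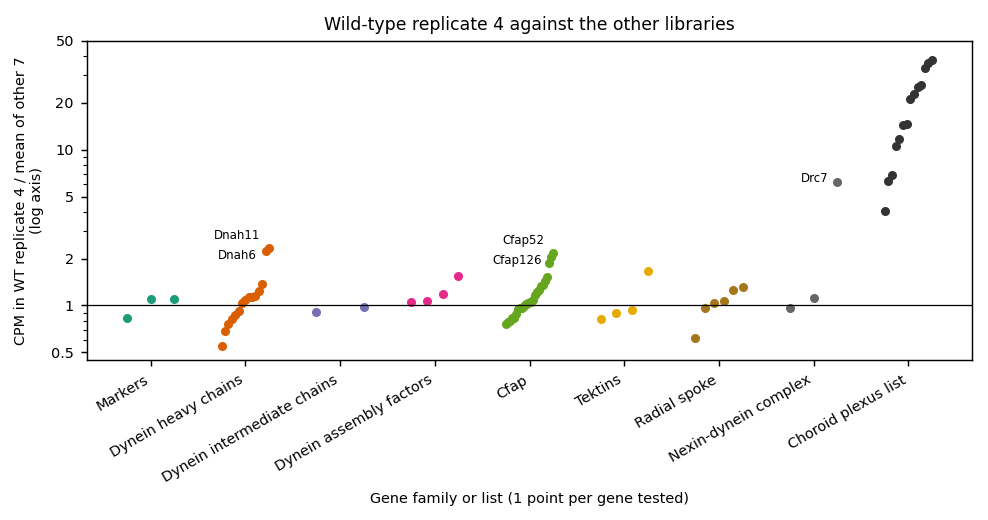
CPM in wild-type replicate 4 divided by the mean of the other 7 libraries, on a log axis, 1 point per gene tested, by family and for the choroid plexus list. Most motile cilia genes lie near 1, with Drc7 at 6.19, while the choroid plexus genes lie between 4.04 and 37.5.

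At the other end, 20 of the 62 genes (32.3%) were lowest in knockout replicate 3, against 10.1% of all genes. The list level is the log2 CPM of a library relative to the average of all 8, averaged over the 62 genes, and was 0.04, -0.03, 0.00 and 0.16 in wild type and -0.07, 0.04, -0.20 and 0.07 in the knockout. The groups overlapped, with wild-type replicate 4 highest and knockout replicate 3 lowest. The spread among the 4 knockout mice was wider than the distance between the groups. Summed over the genes, the level was 396.5, 396.6, 405.2 and 419.2 CPM in wild type and 388, 400.7, 367.3 and 401.2 CPM in the knockout. In knockout replicate 3 the choroid plexus list stood at -0.67, within the range of the other libraries, and its total count of 34919463 was the third highest.

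The genes with the largest SD within a genotype, after Drc7 at 1.03, were Cfap52, Cfap221, Dnah11 and Dnah12, at 0.51 to 0.65. Cfap221, a protein of the central apparatus, ran from 0.144 to 0.533 CPM over the 8 libraries with its extremes both in the knockout. Its values rest on 5 to 14 counts per library, and counting alone would give an SD of 0.451, against 0.591 measured. Dnah12, an inner arm chain, ran from 0.546 to 1.39 CPM, also with both extremes in the knockout. For Dnah12 counting alone would give an SD of 0.266, against 0.513 measured. The smallest SDs were those of Drc1, Cfap36, Cfap97, Cfap74 and Cfap20, at 0.05 to 0.11. All 5 were at 19 CPM or more in wild type, so that their counting error was also small.

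Genes of the same pathway outside the naming rule of the list were read from 6 further lists, chosen with earlier results of these data known. In these lists, as in the lists of other cell types below, edgeR's quasi-likelihood test, DESeq2 and limma-voom each called 0 genes, and unadjusted p-values are edgeR's. Of 12 regulators of ciliogenesis, 10 lay below 0, with a median log2 fold change of -0.14 against -0.001 over all genes (-0.14 also without wild-type replicate 4), and 0 had an unadjusted p under 0.05. Deup1, which builds the platform for centriole amplification, had -0.66 (SE 0.335), the p53 family member Trp73 -0.68 (SE 0.356), and Rfx3, an X-box-binding factor, -0.26 (SE 0.151). Rfx3 measured 64.7, 93.7, 58.9 and 59.8 CPM in wild type and 55.1, 60.9, 51.3 and 64.1 CPM in the knockout, with wild-type replicate 2 far above the rest. Trp73 measured 2.14 CPM in wild-type replicate 4, 2.10 times the mean of the other 7 libraries, and its log2 fold change was -0.41 without that library.

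The 14 central apparatus genes had a median of -0.02, 8 below 0 and 6 above, and 1 had an unadjusted p under 0.05. That gene was Spag16, a central pair protein, with 1.46, 1.24, 1.23 and 2.36 CPM in wild type and 1.19, 1.005, 0.834 and 1.13 CPM in the knockout. Its groups did not overlap, with wild-type replicate 4 highest, and the log2 fold change was -0.61 (SE 0.246), or -0.34 without that library. Spef1 and Spata17 had 0.09 (SE 0.1) and 0.24 (SE 0.273). The list of docking and ruler complexes, named for genes that place the arms along the doublet, held 18 genes with a median of 0.01. It also held genes of the nexin-dynein regulatory complex outside the naming rule, namely Ccdc65, Gas8, Iqcd, Iqcg and Tcte1. Iqcd was the 1 of the 18 genes with an unadjusted p under 0.05, at -0.49 (SE 0.224), or -0.36 without wild-type replicate 4. Ccdc40 and Ccdc114 had 0.16 (SE 0.172) and -0.13 (SE 0.146).

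Of 13 other dynein assembly and light chain genes, 10 lay below 0, with a median of -0.05 and 1 unadjusted p under 0.05. Tctex1d4 had -0.79 (SE 0.345), Dynlrb2 -0.58 (SE 0.301) and Pih1d1 -0.18 (SE 0.098). Wild-type replicate 4 was 1.98 times the mean of the other 7 libraries for Tctex1d4 and 2.26 times for Dynlrb2, and without it their log2 fold changes were -0.58 and -0.23. Intraflagellar transport genes, which serve immotile cilia as well, differed little between libraries: 13 of 28 lay below 0, the median was 0.02, and the list level stayed between -0.04 and 0.02 in all 8 libraries. Ttc30a1 was the 1 with an unadjusted p under 0.05, at 0.30 (SE 0.133), followed by Wdr19 at 0.12 (SE 0.071) and Ift172 at 0.09 (SE 0.059).

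A further 21 ependymal markers shared Rsph1 with the 62 genes, Dynlrb2 with the dynein assembly list, Enkur and Meig1 with the central apparatus list and Calml4 with the choroid plexus list. They had a median of -0.005, with 11 below 0 and 10 above and 0 at an unadjusted p under 0.05. The smallest p belonged to Capsl, Dynlrb2 and Mlf1, with log2 fold changes of -0.48 (SE 0.248), -0.58 (SE 0.301) and -0.47 (SE 0.276). Mlf1, 2.00 times the mean of the others in wild-type replicate 4, was at -0.17 without it. Their list level was 0.04, -0.14, 0.11 and 0.15 in wild type and -0.06, -0.01, -0.19 and 0.10 in the knockout, again lowest in knockout replicate 3. The choroid plexus list had a median of -2.15, with 14 of 14 below 0 and 0 at an unadjusted p under 0.05, and a median of 0.46 without wild-type replicate 4. Its smallest p belonged to the water channel gene Aqp1, Tmem72 and the folate receptor gene Folr1, at -2.78 (SE 1.44), -2.99 (SE 1.59) and -2.53 (SE 1.45) on the log2 scale. Without wild-type replicate 4 all of them changed sign, to 0.12, 0.50 and 0.43.

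**Figure D5:**
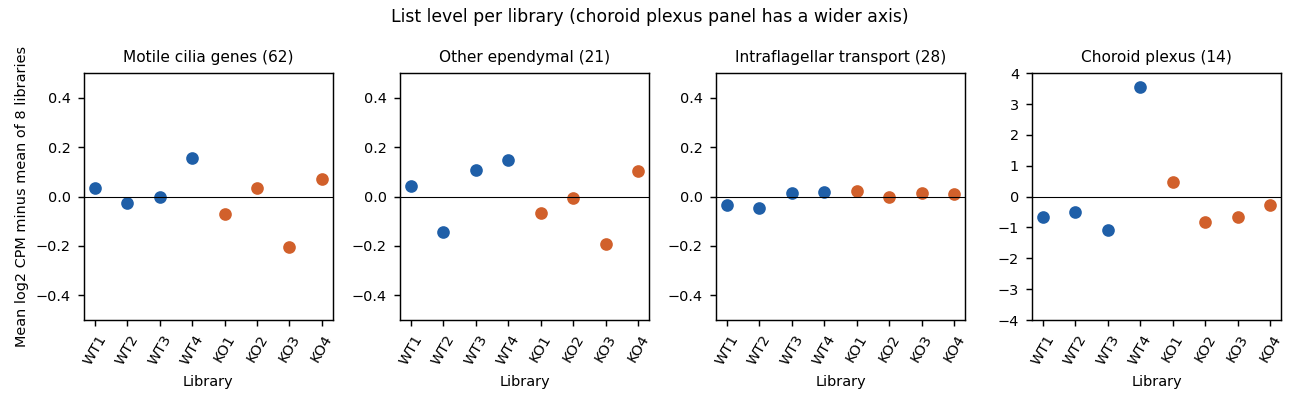
List level in each library, as log2 CPM relative to the average of all 8 libraries and averaged over the genes, for 4 lists, with wild type in blue and knockout in orange. Motile cilia genes run from -0.20 in knockout replicate 3 to 0.16 in wild-type replicate 4, intraflagellar transport genes stay near 0, and the choroid plexus list, on a wider axis, stands at 3.54 in wild-type replicate 4.

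Markers of other cells near the ventricle were read in the same way. The 10 genes of subventricular neuroblasts and cycling cells had a median of -0.04, with 7 below 0 and 0 at an unadjusted p under 0.05. Of 12 astrocyte genes, 10 lay above 0 (49.5% of all genes did), with a median of 0.15, and 6 were higher at an unadjusted p under 0.05 (1.96% of all genes). Gjb6, a gap junction gene, Acsbg1 and Aldh1l1 had log2 fold changes of 0.41 (SE 0.096), 0.23 (SE 0.074) and 0.16 (SE 0.06). The 12 spiny neuron genes had a median of 0.03, running from -0.135 to 0.157, with 4 below 0 and 8 above. The 10 thalamic and cortical genes had a median of 0.17 but went both ways, from -0.364 to 0.65, with 4 below 0 and 6 above. In either list 0 had an unadjusted p under 0.05.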

How the data were processed

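RNA was sequenced from 8 mouse striata, 4 wild type and 4 Dclk3 knockout, 1 striatum per library. The authors deposited whole-number read counts per Ensembl gene, per the file headers raw. Base calls went through bcl2fastq 2.17.1.14 and the build was mm10, per the submitters' processing notes. The aligner, the annotation and the strand setting are none of them stated (not given in the sources used here), so for overlapping genes the assignment of reads is uncertain. Of the 62 genes tested, 11 overlap an annotated gene on the same strand and 27 on the opposite strand only. The former are Dnah2, Dnah6, Dnah7a, Dnaaf2, Dnaaf3, Cfap43, Cfap46, Cfap97, Cfap299, Rsph10b and Drc1. In the other lists Spag16, Spef1, Spata17, Ccdc114 and Aldh1l1 do so too.

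Symbols, positions and exon lengths came from GENCODE for GRCm38, the assembly mm10 names: 31292 identifiers matched and 125 did not (0.0436% of counts). Counts were fitted in R 4.3.3 with edgeR 4.0.16 (filterByExpr with a minimum count of 10, TMM, robust quasi-likelihood, genotype as the only term, 8 libraries), and p-values were adjusted over 16511 genes by Benjamini-Hochberg at 0.05. CPM and log2 values, with a prior count of 2, are computed from these counts. The labels do not say whether library numbers mark shared litters. Same-numbered libraries deviated with correlations of 0.04, 0.02, 0.05 and -0.28 for numbers 1 to 4, so they were not treated as pairs. Within a genotype the chi-square statistic per degree of freedom was 7.12 to 32.7 over the 12 library pairs, far more than counting noise. Floors of 3 counts cover counting error only.

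The genes and lists were chosen with earlier results of these data known. Named genes are Dclk3, the 3 markers, in each family the 3 with the highest level per kb and the 2 with the smallest p, the 5 with the largest and the 5 with the smallest SD, and in each other list the 3 with the smallest p. For the subventricular, spiny neuron and thalamic and cortical lists these genes are not printed. Named after their values were seen were Dnah5, the Dnah7 copies, Dnah8, Tekt4, Rsph3a, Cfap43, Cfap126, Ttr, Ppp1r1b, Drd1 and the untested genes. Alternatives were other scalings and filters, DESeq2 1.42.0, limma 3.58.1 (voom with quality weights), the replicate block, leaving out libraries, symbols from RefSeq and genes without an overlap.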

Additional observations from a re-analysis of the deposited data

Results flagged for a closer look

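Among the named genes, 68 groups of 4 libraries (34 genes in 2 genotypes) were examined for a library far from the other 3, by Dixon's criterion. Of these, 4 were flagged. The criterion flags about 1 in 20 groups taken without regard to their values. Some of these genes were chosen by their SD or p, so the 4 cannot be set against that rate. Drc7 reached 13.29 CPM in wild-type replicate 4, a gap to the next library of 0.963 of the range of the group. Dnah6 reached 4.632 CPM in the same library, with a gap of 0.886 of the range. Cfap298 reached 23.55 CPM in wild-type replicate 2, with a gap of 0.859 of the range. Tekt1 reached 2.08 CPM in knockout replicate 4, with a gap of 0.864 of the range, where the other 3 knockout libraries lay within 1.67 to 1.72 CPM.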

How the results depend on the processing

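No alternative called a motile cilia gene, and the smallest adjusted p under any of them was 0.456, without replicate 4 of both groups. The median log2 fold change of the genes stayed below 0 throughout, from -0.142 to -0.013 when 1 library was left out. The number of all genes called was 2 without wild-type replicate 1 (1 to 2 over libraries left out), 3 without replicate 4 of both groups, and 2 or 3 with DESeq2 on filtered genes or with its own filter. Without a filter Dclk3 kept -2.067 but had an adjusted p of 0.0647. Of the 24 tested genes without an overlapping gene, 17 lay below 0. With RefSeq symbols 65 genes were tested and 69.2% lay below 0.

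With the replicate number as a block, the median was -0.069, 43 of 62 lay below 0 and 0 genes of the list were called; Dnah9 moved to -0.000 and Cfap221 to -0.029.

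Signs changed in 17 named genes, mostly ones near 0. Without replicate 4 of both groups the log2 fold change was -0.087 for Dnah9, 0.066 for Drc3, 0.173 for Drc7, 0.314 for Cfap52, 0.138 for Dnah11 and -0.266 for Dnah12. Without wild-type replicate 4 and knockout replicate 1, chosen after seeing the data, it was -0.002 for Dnaic1, 0.013 for Drc3, 0.24 for Cfap52, 0.279 for Dnah11 and -0.048 for Dnah12, with Ccdc153 at -0.102, Cfap36 at -0.045 and Cfap20 at -0.109. Limma-voom gave -0.025 for Dnaic1, -0.020 for Dnaaf5, 0.002 for Cfap36, 0.001 for Drc3, 0.004 for Cfap52, -0.131 for Cfap221 and -0.093 for Dnah12. Upper-quartile scaling gave 0.001 for Cfap36, and no filter gave -0.003 for Dnah9. Leaving out 1 library gave ranges of -0.142 to 0.136 for Dnah9, -0.258 to 0.3 for Cfap221, -0.083 to 0.116 for Dnaic1, -0.056 to 0.096 for Dnaaf5, -0.027 to 0.036 for Cfap36, -0.011 to 0.196 for Rsph10b, -0.025 to 0.03 for Drc1, -0.078 to 0.113 for Ccdc153, -0.108 to 0.008 for Cfap20, -0.52 to 0.001 for Dnah6, -0.156 to 0.021 for Rsph1, -0.084 to 0.022 for Drc3, -1.38 to 0.188 for Drc7, -0.379 to 0.31 for Cfap52, -0.461 to 0.224 for Dnah11, -0.078 to 0.336 for Dnah12 and -0.009 to 0.058 for Cfap97. The choroid plexus median was 0.489 without replicate 4 of both groups and -0.305 with limma-voom. The causes were not tested.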
